A study of Mus musculus domesticus and Mus musculus molossinus with 8 samples.

Results

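The genes described here are 45 members of the complement and coagulation systems, chosen by symbol from a list drawn up with earlier results of these data known. All 45 were found in both deposited gene tables, each of which holds 23284 genes. They comprise 24 complement genes and 21 genes of coagulation, its inhibitors and fibrinolysis. RNA-seq of polyadenylated RNA covered 4 mice aged 8 weeks, with liver and thymus taken from each animal. MSM, in full MSM/Ms, is an inbred strain derived from Japanese wild mice, and B6 (C57BL/6) is the common laboratory strain. One MSM mouse and one B6 mouse had received 1.5 µg of MegaFasL, a multimeric form of the Fas ligand that triggers the Fas death receptor, into the peritoneal cavity. The other MSM mouse and the other B6 mouse were untreated, and no vehicle-injected mouse is among the samples. Sex and the time between injection and harvest are not stated for these mice. If the MSM and B6 mice differed in sex, that difference could not be told apart from one of strain. Every group was a single library, so no replicate exists, and no error below measures how mice within a group vary. In the strain fits the error comes from how far a difference varied between treatments, with most of its weight borrowed from other genes (3.83 prior against 1 residual degree of freedom in liver). In liver minus thymus it comes from the variation between the 4 mice.

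Complement is a cascade of plasma proteins that marks microbes and dying cells. The classical pathway starts with the C1 proteases, the lectin pathway with mannose-binding lectins and their proteases, and the alternative pathway with factor B and properdin. They meet at C3, and the late components assemble the membrane attack complex, while plasma and membrane regulators hold the cascade in check. Coagulation runs from the contact factors and the vitamin K-dependent proteases through thrombin to fibrin. Antithrombin, heparin cofactor and proteins C and S limit it, and plasmin dissolves the clot. Hepatocytes secrete most of these proteins into the plasma, and macrophages, endothelium and stromal cells make some of them as well.

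The deposited values are FPKM, that is, fragment numbers scaled by transcript length and by sequencing depth. From the steps between low values, depth was estimated at 1.45 to 1.64 fragments per FPKM and kb in the livers and 2.57 to 3.15 in the thymi, so a level of a few FPKM rests on a handful of fragments. Summed over 10 hepatocyte markers, the livers had 131582 FPKM (MSM, injected), 111875 FPKM (MSM, untreated), 97119 FPKM (B6, injected) and 102485 FPKM (B6, untreated). The 8 thymocyte markers summed to 884 to 1711 FPKM in the thymi, and to 2.81, 4.01, 4.11 and 28.1 FPKM in the livers of the injected MSM, untreated MSM, injected B6 and untreated B6 mice. The untreated MSM thymus stood apart. Its hepatocyte markers summed to 2896 FPKM, against 201 FPKM in the injected MSM, 72.2 FPKM in the injected B6 and 39.8 FPKM in the untreated B6 thymus. Of the 45 genes, 44 were highest in this library among the thymi, against 25.5% of all genes tested in thymus. The 2 shares cover unlike sets, since 12 of the 45 were too low to be tested there. Thymus results are therefore given with and without it.

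Some of the genes lie beside a near copy, and their levels depend on how the fragments of shared sequence were assigned. Kng2 (chr16:22985854-23029482, minus strand, mm10) and Kng1 (chr16:23057865-23082078, plus strand) encode kininogens, precursors of bradykinin and cofactors of contact activation. C1ra (chr6:124512405-124523443, plus strand) and C1rb (chr6:124570294-124581171, plus strand) encode forms of the protease C1r. C1s, listed as C1s1 in GENCODE M21 (chr6:124530345-124542359, minus strand), has the neighbour C1s2 (chr6:124624625-124636085, minus strand), which the tables call Gm5077. In mice, the second copies C1rb and C1s2 have been described mainly from the male reproductive tract. Gm5077 is not one of the 45 and was added after its values were seen. The coding sequences of the pairs, from GENCODE M21 transcripts, are shown over the 60 bases in which each pair differs most, with the differing bases in capitals. Such bases of the reference sequence are those by which fragments of one copy can be told from the other, and further ones lie outside the 60 shown.
Kng2: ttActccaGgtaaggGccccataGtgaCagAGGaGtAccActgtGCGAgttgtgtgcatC
Kng1: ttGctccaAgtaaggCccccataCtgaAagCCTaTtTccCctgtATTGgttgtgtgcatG
C1rb: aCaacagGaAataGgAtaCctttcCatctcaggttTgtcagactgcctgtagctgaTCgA
C1ra: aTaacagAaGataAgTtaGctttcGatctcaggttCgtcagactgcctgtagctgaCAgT
C1s2: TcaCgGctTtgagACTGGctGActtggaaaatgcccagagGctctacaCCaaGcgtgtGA
C1s1: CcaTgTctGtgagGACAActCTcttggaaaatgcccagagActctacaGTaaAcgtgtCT

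Kng2 and Kng1 were identical at 92.75% of 1932 aligned coding bases, with 140 differences and none in the first 114 bases. C1rb and C1ra were identical at 98.02% of 2121 bases, with 42 differences. C1s2 and C1s1 were identical at 95.68% of 2085 bases, with 90 differences. Words of 50 bases were counted over the whole transcripts, untranslated parts included. Of these, 17.6% of the Kng2 words also occurred in Kng1, 59.2% of the C1rb words in C1ra and 26.9% of the C1s2 words in C1s1. Most of the C1rb transcript words are thus shared with C1ra, whereas most of those of Kng2 and C1s2 are distinct. The levels of C1ra and C1rb are for that reason uncertain one by one, and their sum is given beside them. Other members shared words with other annotated genes too. The shares were 81.8% for Cfb and 58.0% for C2 (mostly with Gm20547) and 42.7% for Klkb1 (Gm45753). They were 35.2% for C4b (C4a) and 13.3% for Cd55 (Cd55b). The assignment of fragments of these genes was not examined.

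In the liver these genes were among the most abundant transcripts. The 45 together took 2.48% of the summed FPKM in the injected MSM liver and 2.74% in the untreated MSM liver, against 3.51% in the injected and 3.69% in the untreated B6 liver. Between 27 and 34 of the 45 reached 100 FPKM in each liver, against 3.21% to 3.43% of all listed genes. The fibrinogen chains led the list. Fgb averaged 2720 FPKM over the 4 livers and ranked 24th of all genes, Fgg averaged 2596 FPKM, and Fga averaged 2023 FPKM. C3, on which all complement pathways converge, averaged 2341 FPKM and ranked between Fgg and Fga. Vitronectin (Vtn, which keeps terminal complexes off host membranes) followed with 1268 FPKM, then Kng1 with 1136 FPKM and plasminogen (Plg, the precursor of plasmin) with 1000 FPKM.

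Levels spread widely within each role. The membrane attack components had mean liver levels between 43.8 FPKM (C6) and 251 FPKM (C8g). The lectin pathway ran from 47.0 FPKM for the protease Masp1 to 569 FPKM for mannose-binding lectin 2 (Mbl2). Among clotting factors, F7 was lowest at 79.3 FPKM and prothrombin (F2) highest at 837 FPKM. Anticoagulants ranged between 19.0 FPKM for protein S (Pros1) and 984 FPKM for antithrombin (Serpinc1). Decay-accelerating factor (Cd55, a membrane regulator) and properdin (Cfp, the stabiliser of the alternative convertase, made largely by myeloid cells) were the lowest complement genes, with means of 9.10 and 13.9 FPKM.

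**Figure D1:**
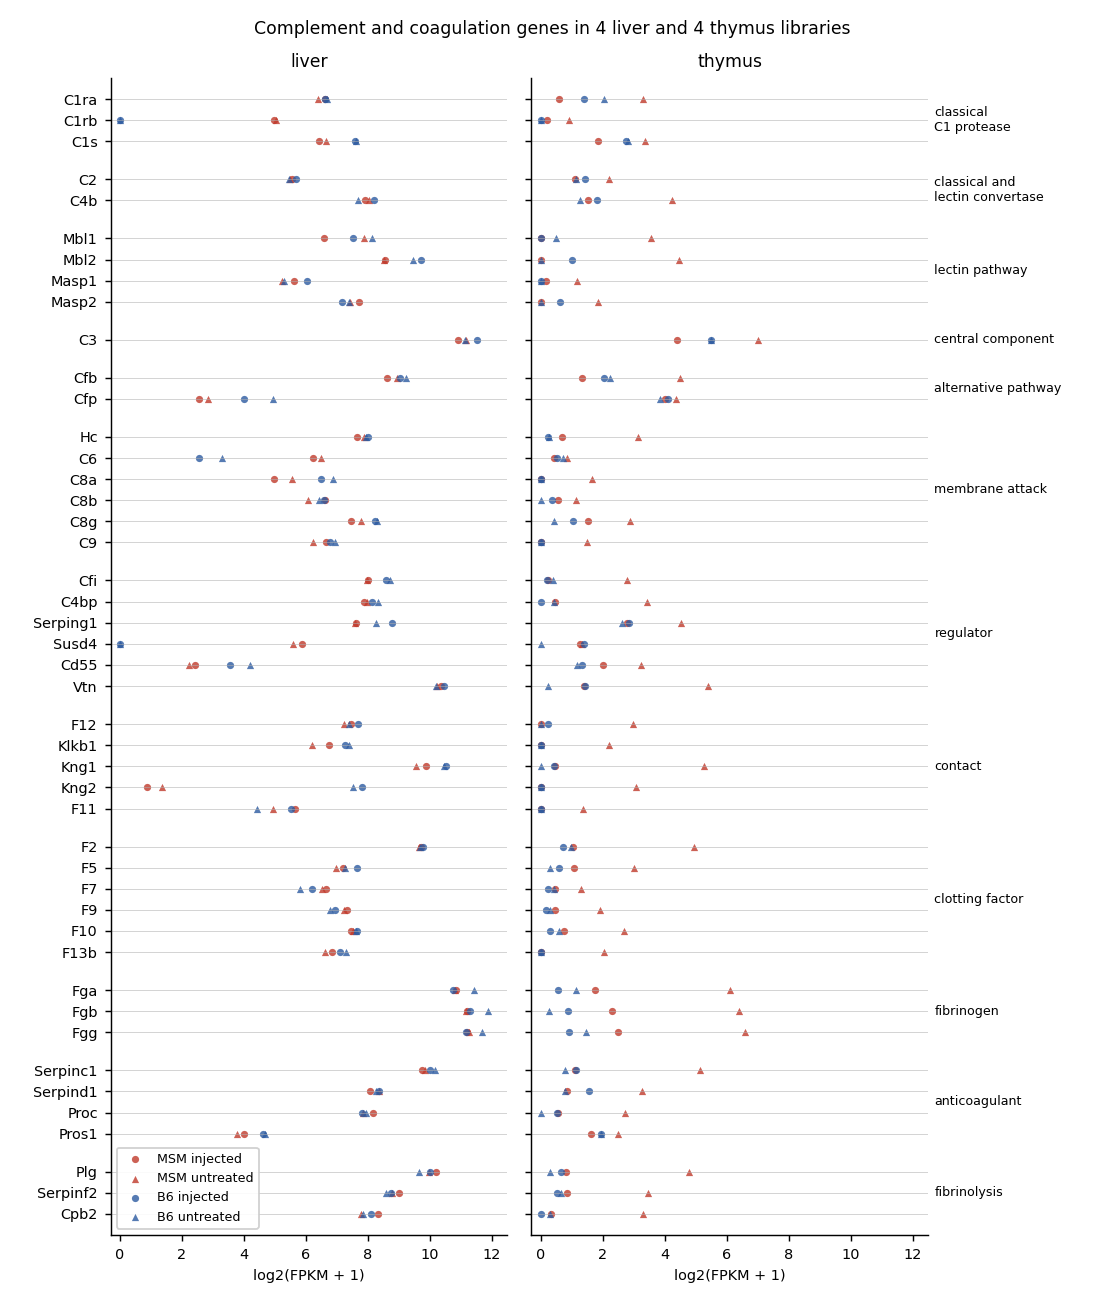
Level of the 45 genes in each liver and thymus library as log2(FPKM + 1), grouped by role, with 1 point per library and no error bars because each group is a single library. The fibrinogen genes and C3 sit near the top of the liver scale, between 1723 and 3722 FPKM, and the points of the untreated MSM thymus lie above those of the other thymi for 44 of the 45 genes.

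The MSM and B6 livers differed strongly at 4 of the 45 genes. With sex not stated, a difference of sex cannot be told apart here from one of strain. Susd4, C1rb and C6 were higher in MSM, and Kng2 was higher in B6. In the fit over all 10971 genes expressed in liver (limma with mean trend, treatment as a block, Benjamini-Hochberg adjusted p under 0.05), 3 of the 45 were higher in MSM and 1 was lower, against 0.51% and 0.957% of all tested genes. Without adjustment, 16 of the 45 had a p under 0.05, against 16.2% of all genes, and of these 4 were higher and 12 lower in MSM.

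Susd4 (chr1:182763860-182896591, plus strand) encodes a membrane protein with complement control repeats that restrains complement activation. It had 57.3 FPKM in the injected and 47.3 FPKM in the untreated MSM liver and was listed at 0 in both B6 livers. The difference was 5.73 ± 0.29 (SE) on the log2(FPKM + 1) scale, with a limma adjusted p of 0.00472. Because B6 was listed at 0, the difference depends on the added 1 and is no fold change. The gene was not at 0 everywhere in B6, since it had 1.62 FPKM in the injected B6 thymus, close to 1.40 FPKM in the injected and 1.55 FPKM in the untreated MSM thymus.

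C1rb had 30.4 FPKM in the injected and 32.1 FPKM in the untreated MSM liver, and was also listed at 0 in both B6 livers. Its difference was 5.01 ± 0.31 (SE, log2 scale, limma adjusted p 0.00766). C1ra had a difference of -0.15 (limma adjusted p 0.775), with 96.4 and 83.5 FPKM in the injected and untreated MSM livers and 96.8 and 102.0 FPKM in the injected and untreated B6 livers. The sum of C1ra and C1rb was 127 and 116 FPKM in MSM, against 96.8 and 102.0 FPKM in B6, in the same order of treatments. The neighbour Gm5077 followed the pattern of C1rb, with 37.2 and 36.2 FPKM in the injected and untreated MSM livers and 0 in both B6 livers (difference 5.24 ± 0.30 SE, limma adjusted p 0.00632). C1s went the other way, with 84.5 and 99.2 FPKM in MSM against 191 and 195 FPKM in B6, but its difference of -1.07 did not pass (limma adjusted p 0.102). The sum of C1s and Gm5077 stayed lower in MSM, at 122 and 135 FPKM, against 191 and 195 FPKM in B6.

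C6 (chr15:4727175-4814967, plus strand), which binds C5b to start the membrane attack complex, had 73.7 FPKM in the injected and 88.0 FPKM in the untreated MSM liver. The B6 livers had 4.84 FPKM (injected) and 8.76 FPKM (untreated). These levels correspond to an estimated 307 and 401 fragments in MSM and 22.8 and 38.7 fragments in B6, and to FPKM ratios of MSM over B6 of 15.2 in injected and 10.04 in untreated mice. The fitted difference was 3.43 ± 0.25 (SE, log2 scale, limma adjusted p 0.0141), and without the mean trend it no longer passed (adjusted p 0.0605). No 50-base word of the C6 transcript occurred in another gene.

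Kng2 was the only one of the 45 that passed as lower in MSM. It had 0.857 FPKM in the injected and 1.56 FPKM in the untreated MSM liver, an estimated 2.85 and 5.66 fragments, against 222 and 181 FPKM in the injected and untreated B6 livers. The difference was -6.53 ± 0.29 (SE, log2 scale, limma adjusted p 0.00386). Kng1 had 929 and 751 FPKM in the injected and untreated MSM livers and 1474 and 1389 FPKM in the B6 livers, a difference of -0.78 that did not pass (limma adjusted p 0.155). The summed kininogen level was 930 and 752 FPKM in MSM, against 1696 and 1570 FPKM in B6, so it was lower in MSM in both treatments.

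**Figure D2:**
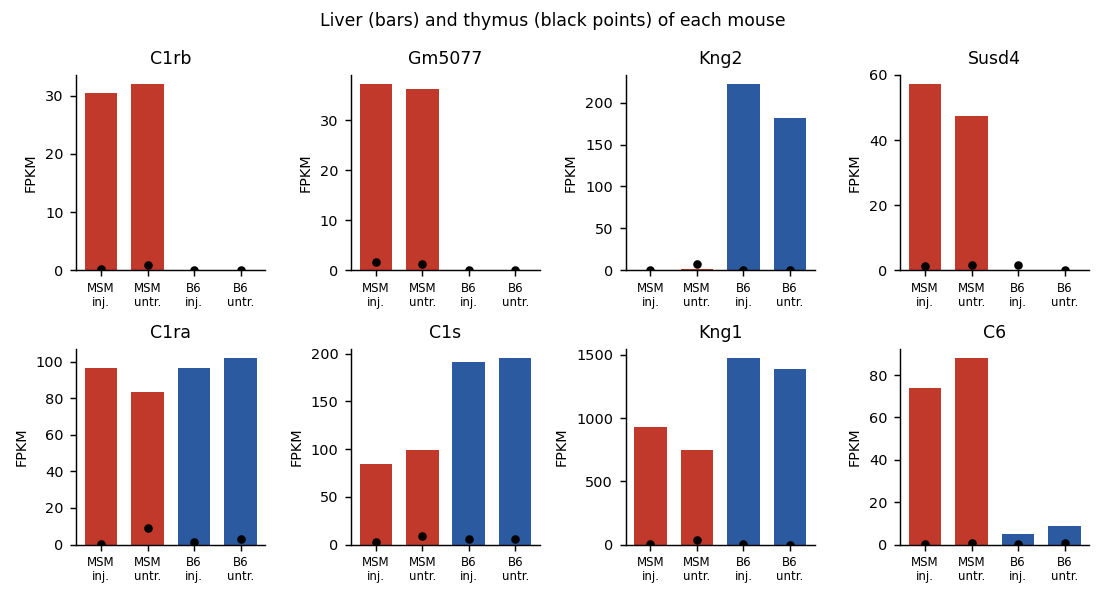
FPKM of the C1r, C1s and kininogen pairs, Susd4 and C6 in each mouse, with bars for its liver, black points for its thymus, and no error bars because each is a single library. C1rb and Gm5077 lie between 30.4 and 37.2 FPKM in MSM and at 0 in B6, whereas Kng2 lies at 1.56 FPKM or less in MSM and at 181 FPKM or more in B6.

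These calls rest on few residual degrees of freedom. Without any 1 of the 4 liver libraries, when the treatment term has to be dropped, none of the 45 and none of all genes passed, and the Susd4, C1rb, C6 and Kng2 differences kept their direction (adjusted p 0.0564 to 0.348). The deposited FPKM intervals began at 0 for all 45 genes in every liver. The MSM and B6 intervals of all 45 therefore overlapped in both treatments whatever the levels, and they cannot bear on these calls. Such intervals were apart in both treatments for 0% of the tested genes.

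The other members differed less between the strains. Over the 45, the median difference was -0.24 (log2 scale), against 0.01 over all tested genes, and 33 of the 45 lay below 0. Levels were lower in MSM in both treatments for 26 of the 45 and higher in both for 9, while 30.8% and 31.0% of all genes did so. The shift was seen in the complement genes (15 lower and 4 higher of 24) and in the coagulation genes (11 lower and 5 higher of 21). None of the 45 passed the threshold other than the 4 described above.

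Among membrane attack components, C6 stood alone in being higher in MSM in both treatments, and 4 of the 6 were lower in both. C8a, part of the C8 heterotrimer, had 30.4 and 45.8 FPKM in the injected and untreated MSM livers and 88.9 and 116 FPKM in the B6 livers, a difference of -1.42 (limma adjusted p 0.0623). It passed in 3 of 12 other settings, among them the filter of 5 FPKM (adjusted p 0.0471). Component C5 (Hc), C8b, C8g and C9 differed by less than 1 log2 unit.

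Among the initiators, Mbl2, a lectin that binds microbial sugars, had 374 and 366 FPKM in MSM against 831 and 703 FPKM in B6, in injected and untreated mice. Its difference of -1.04 did not pass (limma adjusted p 0.0921). Mbl1 had 95.3 and 232 FPKM in MSM against 184 and 281 FPKM in B6. C2 and C4b, from which the classical and lectin convertase is built, had differences of -0.05 and 0.04. For C3 the injected mice had 1913 FPKM in MSM and 2924 FPKM in B6, while the untreated mice had 2291 and 2236 FPKM, so the order of the strains changed between treatments.

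Properdin and Cd55 had the largest differences that missed the threshold. Cfp had 4.81 and 6.12 FPKM in the injected and untreated MSM livers and 15.1 and 29.5 FPKM in the B6 livers (-1.79, limma adjusted p 0.0820). Cd55 had 4.38 and 3.73 FPKM in MSM against 10.8 and 17.5 FPKM in B6 (-1.55, limma adjusted p 0.138). Markers of 2 other kinds of liver cell were lower in MSM too. All 8 Kupffer cell and macrophage markers were lower in MSM in both treatments, with sums of 41.8 and 57.8 FPKM in the injected and untreated MSM livers against 151 and 301 FPKM in the B6 livers. All 5 endothelial markers were lower as well, with sums of 21.5 and 58.6 FPKM against 56.4 and 70.6 FPKM. None of these markers was at 0 in any liver. The 6 fibroblast and stellate cell markers were mixed, with 3 lower and 2 higher in MSM in both treatments, and sums of 89.7 and 75.2 FPKM in the injected and untreated MSM livers against 84.6 and 131 FPKM in the B6 livers. Fewer cells of a type and less RNA per cell cannot be told apart in bulk tissue, and their part in the levels of Cfp and Cd55 was not tested. Hepatocyte markers did not fall with them, as 7 of 10 were higher in MSM in both treatments.

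On the coagulation side, the differences apart from Kng2 were below 1 log2 unit. Of the 5 contact genes, 4 were lower in MSM in both treatments and 1 was higher. Among those lower was Klkb1, with a difference of -0.86 (limma adjusted p 0.216). It had 107 and 72.8 FPKM in the injected and untreated MSM livers and 154 and 168 FPKM in the B6 livers. Prothrombin, F5, F7, F9, F10 and F13b spanned -0.46 to 0.58, with the highest value at F7, the factor that tissue factor engages. F7 had 98.3 and 91.7 FPKM in the injected and untreated MSM livers and 71.8 and 55.5 FPKM in the B6 livers. The anticoagulants lay between -0.75 and 0.11, and the lowest was Pros1, with 15.1 and 12.8 FPKM in MSM and 23.4 and 24.8 FPKM in B6. Of the genes of fibrinolysis, Plg and its inhibitor antiplasmin (Serpinf2) were slightly higher in MSM in both treatments, with differences of 0.26 and 0.23.

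**Figure D3:**
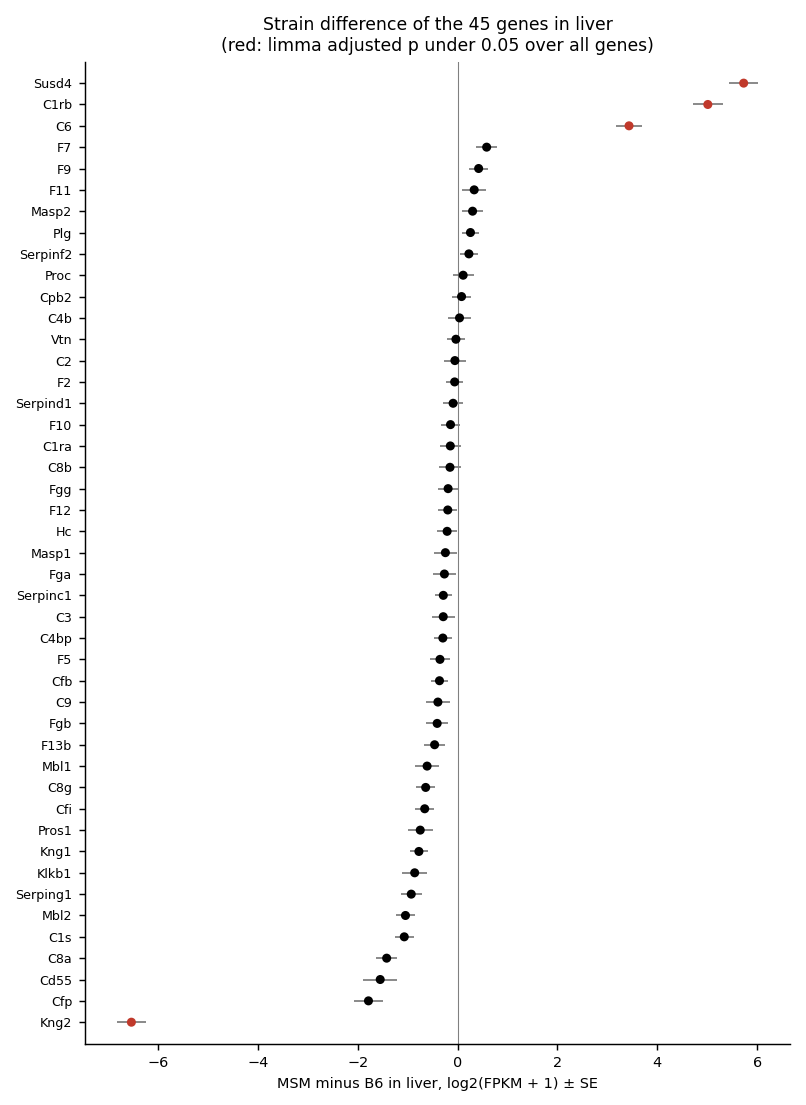
MSM minus B6 in liver for the 45 genes on the log2(FPKM + 1) scale, ordered by size, with bars for the SE of the limma fit over 4 libraries and red marking an adjusted p under 0.05. Susd4, C1rb and C6 lie at 5.73, 5.01 and 3.43 and Kng2 at -6.53, while the other 41 lie between -1.79 and 0.58.

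Related genes outside the 45 were looked up from 2 further lists. Of 27 other complement genes (among them C1q chains, factors D and H, receptors and membrane regulators), 16 were expressed in liver, 0 passed as higher and 2 as lower in MSM, with a median difference of -0.93. Cfhr2, a factor H-related gene, had 106 and 144 FPKM in the injected and untreated MSM livers against 438 and 510 FPKM in the B6 livers (-1.93 ± 0.19 SE, limma adjusted p 0.0283). Cd59a, which blocks the last step of membrane attack, had 6.42 and 6.61 FPKM in MSM against 26.2 and 35.3 FPKM in B6 (-2.07 ± 0.26 SE, limma adjusted p 0.0455). Of 33 other genes of coagulation, 20 were expressed in liver and 0 passed in either direction in the limma fit, with a median of -0.10. Without adjustment, a p under 0.05 was reached by 8 of the 16 complement genes (0 higher and 8 lower) and by 8 of the 20 coagulation genes (3 higher and 5 lower), against 16.2% of all genes. The complement list holds genes that macrophages express, such as the C1q chains, Vsig4 and Fcna, and the Kupffer cell and macrophage markers were lower in MSM as well (41.8 and 57.8 FPKM against 151 and 301 FPKM in B6). The part of this in the list's median was not tested. Genes related to factor H resemble one another in sequence, and the assignment of Cfhr2 fragments was not examined.

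After injection of MegaFasL, no large shared change was seen in the liver. Treatment coincided with the separately normalized table and was not tested, so changes are given per strain after centring the libraries on their median ratio. None of the 45 changed 2-fold or more in the same direction in both strains, whereas 1.62% of all genes were higher and 1.26% lower by that rule. In MSM 1 of the 45 was at least 2-fold lower after injection, against 7.1% of all genes, and 1 was at least 2-fold higher in B6, against 6.5%. The median change of the 45 was 0.02 in MSM and -0.01 in B6.

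Mbl1 was the gene with the 2-fold lower level in MSM, with 95.3 FPKM in the injected and 232 FPKM in the untreated liver, a change of -1.31. In B6 its levels were 184 FPKM (injected) and 281 FPKM (untreated), a change of -0.67 in the same direction. Factor XI (F11), a protease of the contact phase, had 44.9 FPKM in the injected and 20.3 FPKM in the untreated B6 liver, a change of 1.05. In MSM it had 48.9 and 30.0 FPKM, a change of 0.65. The F11 change in B6 was 0.93 to 1.16 over the other scalings, filters and added values, so it did not reach 2-fold in all of them.

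All 3 fibrinogen chains were lower in the injected than in the untreated B6 liver, by less than 2-fold. Fga had 1723 FPKM in the injected and 2747 FPKM in the untreated B6 liver, Fgb had 2535 and 3722 FPKM, and Fgg had 2292 and 3283 FPKM. These are changes of -0.74, -0.62 and -0.58. In MSM, Fga had 1828 and 1793 FPKM, Fgb 2345 and 2279 FPKM, and Fgg 2347 and 2462 FPKM in the injected and untreated livers, changes of -0.01, 0.00 and -0.11, and the sign for Fga and Fgb depended on the scaling. The summed fibrinogen level was 6520, 6535, 6549 and 9752 FPKM in the injected MSM, untreated MSM, injected B6 and untreated B6 livers, so 1 library, the untreated B6 liver, lay above 3 nearly equal ones. That is also the liver with the highest thymocyte marker sum, 28.1 FPKM, and whether the fibrinogen level moved with its makeup was not tested. Over all 45 genes, 15 had changes above 0 in both strains and 14 below 0 in both, of which 9 and 9 kept that sign in both strains under every scaling, filter and added value tried. All 3 genes of fibrinolysis were among the 9 above 0, by 0.17 to 0.51 in MSM and 0.08 to 0.30 in B6. Of the 6 membrane attack components, C6, C8a and C8g were below 0 in both under all of these settings, C6 with -0.29 in MSM and -0.80 in B6, while the sign for Hc in B6 depended on the scaling. Properdin had changes of -0.33 in MSM and -0.98 in B6.

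**Figure D4:**
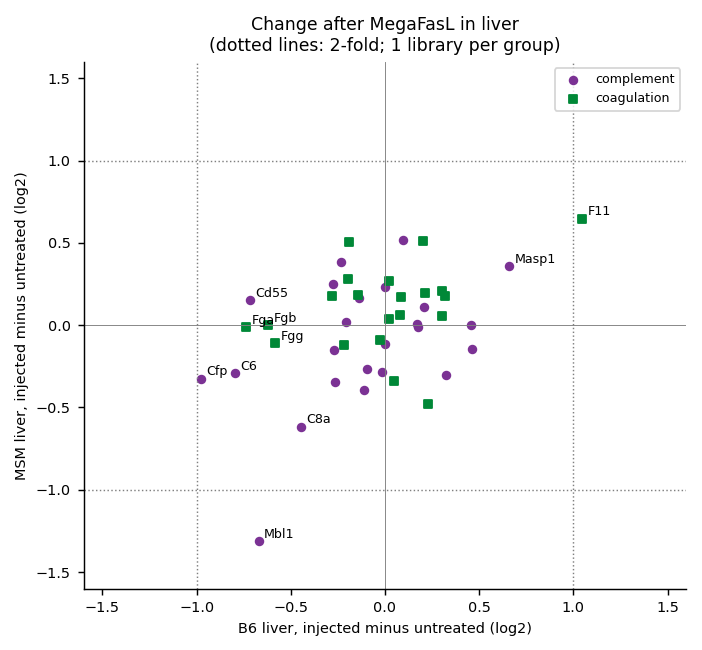
Injected minus untreated change of each of the 45 genes in the MSM liver and in the B6 liver, on the log2(FPKM + 1) scale after median-ratio centring, with 1 point per gene, MSM on the vertical and B6 on the horizontal axis, and dotted lines at 2-fold. No gene lies past 2-fold in both strains, Mbl1 is at -1.31 in MSM and F11 at 1.05 in B6.

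Liver and thymus were far apart at nearly all of these genes. In the fit over all 8 libraries with mouse as a block, 40 of the 45 were higher in liver, against 28.6% of 12880 tested genes, and 0 were lower, against 32.1% (limma adjusted p under 0.05). The median difference was 6.42 on the log2 scale, against -0.13 over all genes. The largest were Fgb with 8.91 ± 1.06 (SE), Fga with 8.56 ± 0.93 (SE), Kng1 with 8.56 ± 1.02 (SE) and Fgg with 8.46 ± 0.93 (SE), which differ from one another by less than their errors. Without the untreated MSM mouse, 42 of the 45 were higher in liver. With rescaling to a common sum (TPM), the all-gene median moved to -1.10 and 22.2% of all calls were higher in liver, against 47.1% as deposited, and the median of the 45 was 6.11.

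The other 5 did not pass. C1rb, Susd4 and Kng2, which are near or at 0 in one strain's liver, had differences of 2.22, 1.86 and 3.62. Cd55 had 1.17 (limma adjusted p 0.168), and its thymus levels were 3.04 and 8.53 FPKM in the injected and untreated MSM mice and 1.53 and 1.25 FPKM in the B6 mice. Cfp was the only one of the 45 with a higher mean in thymus, with 15.0 and 19.8 FPKM in the MSM and 16.1 and 13.4 FPKM in the B6 thymi, and a difference of -0.50 (limma adjusted p 0.373). A few others were also well above 0 in every thymus. C3 had 20.0 and 127 FPKM in the injected and untreated MSM thymi and 43.9 and 44.3 FPKM in the B6 thymi. The C1 inhibitor gene Serping1 had 5.95 and 21.9 FPKM in MSM and 6.23 and 5.2 FPKM in B6, and C1s had 2.61 and 9.42 FPKM in MSM and 5.69 and 6.00 FPKM in B6.

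Within the thymus, 33 of the 45 reached a mean of 1 FPKM, and 15 of these 33 would not have done so without the untreated MSM library. None of the 33 passed the strain test in either direction, against 0.379% of all genes higher and 0.594% lower (limma adjusted p under 0.05). Without adjustment, 9 of them, all higher in MSM, had a limma p under 0.05, against 13% of all genes. For the 15 that were tested only through the untreated MSM library, the filter itself favoured a higher level in MSM. The shares of the 33 and of all genes are therefore not alike, here and in the leave-out counts that follow. Leaving out the injected MSM thymus, so that the untreated one alone stood for MSM, brought 18 past the threshold as higher, and leaving out the untreated MSM thymus brought 0. After injection, at least 2-fold lower levels in MSM were counted for 30 of the 33, against 9.56% of all genes, but for the 15 that were tested only through the untreated MSM library this direction was fixed by the filter. Of the 18 that reached 1 FPKM without it, 15 were at least 2-fold lower. In B6, 3 of the 33 were at least 2-fold higher, against 2.11%. None changed 2-fold in the same direction in both strains, against 0.276% of all genes higher and 0.422% lower, and 2 (Mbl2 and Vtn) changed 2-fold in opposite directions, against 0.594%. All these MSM changes were measured against the untreated MSM thymus, whose hepatocyte marker sum was also the highest, so nothing is read from their number.

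The strain difference itself was then compared between the organs. In the fit on each mouse's liver minus thymus difference, Kng2 (-8.07 ± 0.63 SE, limma adjusted p 0.0222), C1rb (4.44 ± 0.48 SE, adjusted p 0.0483) and Susd4 (5.12 ± 0.56 SE, adjusted p 0.0491) passed. That is 2 of the 45 higher and 1 lower, against 0.109% and 0.256% of all genes. C6 had 3.42 (adjusted p 0.0599). C1rb, C6 and Susd4 were at 0.902, 0.805 and 1.62 FPKM or less in every thymus. A strain difference had little room to show there, so for these genes the comparison largely repeats the difference in liver. These calls were fragile, since Kng2 passed in 4 of 11 other settings and Susd4 and C1rb in 1 of 11. With each library rescaled to a common sum (TPM), the split over all genes was 5 higher and 3 lower, against 14 higher and 33 lower as deposited, and none of the 45 passed. Without the untreated MSM mouse, the Kng2 difference was -6.76 (adjusted p 0.0909), and none of the 45 passed.

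The levels in the untreated MSM thymus can be set beside the untreated livers of both strains. Over 31 genes at 2 FPKM or less in the other 3 thymi and above 0 in both livers, the thymus level was a median of 3.43% of the untreated MSM liver of the same mouse and 3.01% of the untreated B6 liver. The percentages had an SD of 1.46 log2 units against the MSM liver and 0.68 against the B6 liver, but Kng2 alone made the difference. Without Kng2 the other 30 lay between 0.915% and 8.24% of the MSM liver and between 1.40% and 9.19% of the B6 liver, with SDs of 0.68 and 0.69. A wider set of 231 genes met the same rules and also reached 100 FPKM in at least one untreated liver, which was not asked of the 31. Over these 231 the SDs were 1.69 and 0.70.

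The 4 genes that differed between the strains in liver did not go one way here. Kng2 had 7.46 FPKM in the untreated MSM thymus, an estimated 44.0 fragments, which is 479% of the level in that mouse's own liver and 4.11% of the level in the untreated B6 liver. C6 had 0.805 FPKM, an estimated 5.95 fragments, or 0.915% of its own mouse's liver and 9.19% of the B6 liver. C6 was however at 0.365 to 0.659 FPKM in the other thymi too. C1rb and Susd4 were present in this thymus at 0.902 and 1.55 FPKM, or 2.81% and 3.27% of the MSM liver, and were listed at 0 in the B6 livers. Susd4 was however at 1.40 FPKM in the injected MSM and 1.62 FPKM in the injected B6 thymus too. The C1rb level rests on an estimated 5.63 fragments, and C1ra, which shares most of its words, had 8.85 FPKM in this thymus. Kng2 was thus higher in this thymus than in the liver of the same mouse, while C1rb, listed at 0 in B6 livers, was detected there. The source of these transcripts was not tested.

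**Figure D5:**
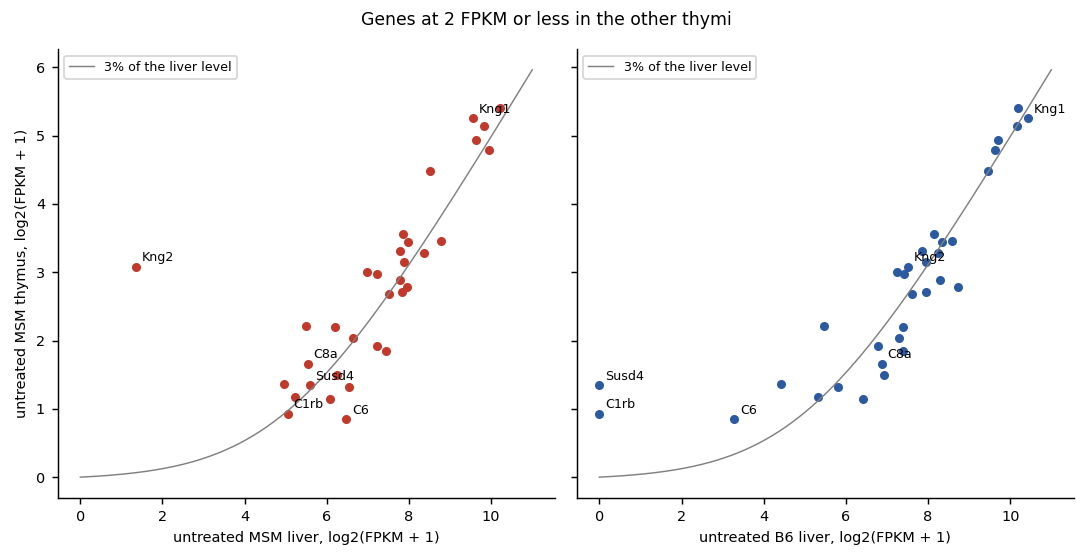
Levels in the untreated MSM thymus against the untreated MSM liver (left) and the untreated B6 liver (right), both axes as log2(FPKM + 1), for the 33 of the 45 genes at 2 FPKM or less in the other thymi, with a line at 3% of the liver level. Most genes lie near the line in both panels, Kng2 lies far above it against the MSM liver at 479%, and C6 lies below it there at 0.915%.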

How the data were processed

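RNA-seq libraries (TruSeq, polyadenylated RNA) of liver and thymus from 4 mice were used. The authors deposited FPKM with intervals per gene in 2 tables, untreated and injected, each normalized separately. Per the submitters' processing notes, TopHat and Cuffdiff 2.2.1 were used with mm10. Aligner version, gene annotation and settings are not given in the sources used here. The mm10 genome is of B6 origin, and what this does to MSM levels was not tested. All deposited values had the status OK. FPKM hold no counts. Depth was estimated from 2015 one-transcript genes of 1500 nucleotides or more, as the scale at which most values become whole fragments within 0.1. Per library, 56.5% to 64.1% of the values did so, where chance gives 20% at a scale fixed beforehand. The scale was picked to make this share highest, so the shares are not alike and their gap overstates the fit. Fragment numbers cover counting error alone.

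Comparisons used log2(FPKM + 1), which understates changes of low genes. Genes averaging 1 FPKM or more in the compared libraries (in either tissue for comparisons across tissues) were fitted with limma 3.58.1 in R 4.3.3, with mean trend, two-sided, and Benjamini-Hochberg adjusted p over all genes. Strain fits had treatment as a block, leaving 1 residual degree of freedom, and liver minus thymus had mouse as a block. The p-values measure only the spread between these libraries. Injection was described, not tested, as 2-fold changes in both strains after median-ratio centring. The 45 genes and the other lists were chosen with earlier results of these data known. Values per library are given for genes past the liver strain threshold, the 3 most abundant, and the C1r, C1s, fibrinogen and kininogen groups. Other genes with values were chosen after their values were seen. Coordinates and coding sequences are from GENCODE M21 (mm10, counted from 1), and all 45 positions overlapped the deposited loci. Pairs were aligned with Biopython 1.88. Alternatives were added values of 0.1 and 5, no filter or 5 FPKM, median-ratio centring, TPM, no trend, no block, and leaving out each library or mouse.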

Additional observations from a re-analysis of the deposited data

Results flagged for a closer look

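For 3 genes the strain difference itself differed between liver and thymus by a test (limma adjusted p under 0.05). The difference of MSM minus B6 in liver, less that in thymus, was 4.44 for C1rb, 5.12 for Susd4 and -8.07 for Kng2 on the log2 scale. C1rb and Susd4 were at 0.902 and 1.62 FPKM or less in every thymus, so their values largely repeat the difference in liver. The Kng2 value includes the untreated MSM thymus, where Kng2 had 7.46 FPKM and was listed at 0 in the other 3 thymi, and without that mouse it was -6.76 and no longer passed (limma adjusted p 0.0909). Kng2 passed in 4 of 11 other settings, and C1rb and Susd4 in 1 of 11. The change after injection went in opposite directions by at least 2-fold in the MSM and the B6 thymus for 2 genes, against 0.594% of all genes. The MSM change less the B6 change was -5.54 for Mbl2 and -5.27 for Vtn, and this difference was not tested. Mbl2 had 0 FPKM in the injected and 21.2 FPKM in the untreated MSM thymus, and 1.03 FPKM in the injected and 0 FPKM in the untreated B6 thymus. Vtn had 1.66 and 41.3 FPKM in the injected and untreated MSM thymus, and 1.73 and 0.188 FPKM in the B6 thymus. Both depend on the untreated MSM thymus, which had the highest hepatocyte marker sum, and the part of that was not tested.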

How the results depend on the processing

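Of the counts under other settings, 118 stayed within 1.5 times the reported count and 73 did not. None of the single-gene strain differences that were recomputed changed sign, but in the comparison of the strain difference between tissues the split over all genes turned, with 5 higher and 3 lower under TPM against 14 higher and 33 lower as reported. The causes were not tested except where stated. In liver, 1 gene of the 45 was lower in MSM as reported, 2 with a filter of 5 FPKM, 2 with no filter and 4 after rescaling to TPM. The 161 genes called in liver became 37 without trend and 310 with TPM, which moved the median of all genes from 0.01 to -0.15. In thymus, 0 of the 45 were higher as reported, 1 with the filter of 5 FPKM and 3 with an added 0.1. The 113 genes called there became 184 with the filter of 5 FPKM, 44 without trend, 54 with centring, 62 with no filter, 300 with an added 0.1 and 33 with TPM. For liver minus thymus, 1 of the 45 was lower with TPM. In the comparison of the strain difference between tissues, the 2 higher became 0 with the filter of 5 FPKM, without trend, with centring, with no filter, with an added 0.1 and with TPM, and the 1 lower became 0 with either filter change, the added 0.1 and TPM. All genes called there, 47 as reported, were 15 with the filter of 5 FPKM and 15 with none, 26 without trend, 27 with centring, 5 and 132 with an added 0.1 and 5, and 8 with TPM.

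After injection, the 178 genes higher and 138 lower in both livers became 281 and 271 with an added 0.1 and 76 and 32 with an added 5, and 74 were lower with the filter of 5 FPKM. The 32 higher and 49 lower in both thymi became 18 and 21 with that filter, 58 and 175 with an added 0.1, 16 and 9 with an added 5, and 51 and 113 with TPM. Of the 45, 4 (added 0.1) and 2 (TPM) were then lower in both thymi. Leaving out 1 library each time, with no treatment term, gave 0 to 0 calls of the 45 higher, 0 to 0 lower and 0 to 0 of all genes in liver, and in thymus 0 to 18, 0 to 0 and 10 to 301. Leaving out 1 mouse gave 40 to 42 higher, 0 to 0 lower and 6313 to 7286 genes for liver minus thymus, and 0 to 0, 0 to 5 and 0 to 51 for the comparison between tissues. The lone library of an arm is then assumed to vary like the others. No paired analysis was possible because each group is 1 library and the labels give no replicate numbers, except by mouse between the organs, where dropping the mouse term left 40 of the 45 higher in liver. With 1 library per group and few estimated fragments per FPKM, levels of a few FPKM are poorly determined.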
